A study of Mus musculus with 38 samples.

Results

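The mitochondrially encoded genes were all 37 genes whose mouse symbol begins with mt-, of 48709 genes in the files. They comprised 13 protein genes, 2 rRNA genes and 22 tRNA genes, and were found by matching the Ensembl identifiers of the count files to gene symbols. They were read in the hippocampus of 38 mice in 8 groups, all on the C57BL/6 background. The mice were either wild type (WT) or carried the APP(Swe)/PS1ΔE9 transgenes (APPPS1ΔE9, genotype label APPdelta9), which lead to deposition of amyloid β peptide, and they ate chow with anle138b, a small molecule directed against protein aggregation, or placebo chow. In the pre-plaque group the chow was given between 2 and 6 months and the tissue was taken at 6 months. There were 4 mice in each of the 4 combinations of genotype and chow. In the post-plaque group it was given between 6 and 10 months and the tissue was taken at 10 months. There were 5 WT mice on each chow, 5 APPPS1ΔE9 mice on placebo and 7 APPPS1ΔE9 mice on anle138b. Each library held the RNA of 1 mouse. A bulk hippocampus is a mixture of neurons, glia and vessels, and in such samples fewer cells of a type and less RNA per cell cannot be told apart.

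Total counts per mouse ranged from 15847985 to 31895808 (median 24530658). App, which the transgene raises, was at 1522 to 1799 CPM (the count divided by the library total, times 1000000) in the 18 WT and at 3274 to 4286 CPM in the 20 transgenic mice, with no overlap. The titles of the 4 pre-plaque placebo-treated WT samples say WT while their genotype field names the transgene. These mice are grouped by title, and their App level lay within the WT range. The study describes all mice as male, yet 12 of the 38 had at most 1.89 CPM in Y-linked genes against at least 169 CPM in the others, 11 of them WT and 1 transgenic. The sequencing lane given in the titles follows the groups closely, so lane and group cannot be told apart in most comparisons. The summed level of 4 choroid plexus markers (Ttr, Folr1, Kl, Clic6), which mark a tissue lying next to the hippocampus, exceeded 1000 CPM in 10 of the 16 younger and 1 of the 22 older mice.

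Mitochondrial DNA is a small circular genome that is transcribed from both strands into long precursors. In these precursors tRNAs lie between most of the mRNAs and rRNAs, and RNase P and ELAC2 cut at the tRNA ends to release the RNAs on either side. The protein genes encode core subunits of the respiratory chain complexes and of ATP synthase, the rRNAs build the mitochondrial ribosome and the tRNAs decode its messages. Brain tissue depends strongly on respiration, and mitochondrial mRNAs are among the most abundant polyadenylated RNAs in it.

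The tRNA genes on which the levels turn are short and abut or nearly abut their neighbours. The 6 tRNA genes with the highest mean level are printed here in their own sense, from GENCODE release M21 transcripts of GRCm38 (mm10), with the anticodon in capitals. The 3 whose levels are followed by mouse later are mt-Tp (proline), mt-Tm (methionine) and mt-Tl1 (leucine, UUR codons).
mt-Tp (chrM:15356-15422, minus strand): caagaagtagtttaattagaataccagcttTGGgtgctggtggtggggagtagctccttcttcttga
mt-Tc (chrM:5192-5257, minus strand): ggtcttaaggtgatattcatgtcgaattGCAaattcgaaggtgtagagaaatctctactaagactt
mt-Tl1 (chrM:2676-2750, plus strand): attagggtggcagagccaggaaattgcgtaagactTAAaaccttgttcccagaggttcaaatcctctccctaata
mt-Ta (chrM:5018-5086, minus strand): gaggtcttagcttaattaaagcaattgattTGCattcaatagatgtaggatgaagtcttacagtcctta
mt-Tm (chrM:3845-3913, plus strand): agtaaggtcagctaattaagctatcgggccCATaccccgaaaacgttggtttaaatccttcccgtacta
mt-Te (chrM:14071-14139, minus strand): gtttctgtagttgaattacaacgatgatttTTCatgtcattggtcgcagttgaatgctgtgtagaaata
These genes are 66 to 75 bases long. mt-Tp abuts mt-Tt on the opposite strand and has the non-coding control region on its other side, while mt-Tl1 abuts mt-Rnr2 and mt-Nd1 with no base between, and mt-Tm lies 2 bases from mt-Tq and abuts mt-Nd2. Whether the authors counted reads by strand is not given in the sources used here, so reads from a gene and from its antisense strand cannot be told apart.

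Of the 37 members, 10 had 0 counts in all 38 mice and 14 never exceeded 3 counts in any mouse. A count of 0 allows a level of up to 0.0941 to 0.189 CPM, depending on the depth of the mouse, and these limits cover counting error only. The members at or near 0 were 6 of the 13 protein genes (mt-Co2, mt-Atp8, mt-Atp6, mt-Co3, mt-Nd3 and mt-Nd4l) and 8 of the 22 tRNA genes (mt-Ts1, mt-Td, mt-Tk, mt-Tg, mt-Tr, mt-Tw, mt-Ty and mt-Th). They encode subunits of cytochrome c oxidase, ATP synthase and complex I, and a level near 0 in a count file does not show that these RNAs are rare in the tissue.

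A run of pseudogenes on chromosome 1 matches part of the mitochondrial genome in the same order. The 7 annotated copies between 24611535 and 24616197 on chromosome 1 correspond to bases 6381 to 11042 of the mitochondrial genome. All 11 members that lie wholly inside this stretch had at most 3 counts in any mouse. mt-Co1 and mt-Nd4, which lie partly inside, reached 397020 and 111575 counts. Of the 24 members outside it, 3 were at 0 (mt-Tw, mt-Ty and mt-Th), while none of the 22 tRNA genes, counted or not, shared a 50-base window with an annotated nuclear transcript. The opening 60 bases of the 2 members and their chromosome 1 copies printed here show how close the copies are, with capitals at the only difference.
mt-Co2 (chrM:7013-7072, plus strand): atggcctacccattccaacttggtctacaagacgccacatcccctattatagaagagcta
Gm28661 (chr1:24615506-24615565, minus strand): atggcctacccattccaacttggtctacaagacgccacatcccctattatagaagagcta
mt-Nd3 (chrM:9459-9518, plus strand): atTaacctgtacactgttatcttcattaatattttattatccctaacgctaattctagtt
Gm28438 (chr1:24613060-24613119, minus strand): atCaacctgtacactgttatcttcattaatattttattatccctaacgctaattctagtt
mt-Co2 and Gm28661 were identical over all 681 bases compared. mt-Nd3 and Gm28438 differed by 1 substitution in 345 bases, T3C, counted from 1 at the start of the gene. The copies of mt-Atp6, mt-Co3, mt-Nd4l and part of mt-Nd4 had no substitution either.

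Where the sequence was shared, the counts were near 0 on both sides in most cases. Of all 50-base windows of mt-Co2, 100% also occurred in a nuclear transcript, and the shares were 99.9% for mt-Co3, 99.5% for mt-Atp6, 98.8% for mt-Nd4l and 98.0% for mt-Nd3. Shares were 62.2% for mt-Nd4 and 51.1% for mt-Co1 and at most 8.19% for the other protein and rRNA genes. mt-Atp8 had 0%, although it lies inside the matching stretch. Only annotated transcripts were searched, so copies of mt-Atp8 or of tRNA genes that lie on chromosome 1 outside an annotated transcript were not looked for. The 1 exception among the chromosome 1 copies was Gm28438, with 286 to 538 counts per mouse (12.03 to 23.7 CPM), against 0 to 2 counts of mt-Nd3. The other 6 chromosome 1 copies had at most 12 counts in any mouse. Of the copies listed on other chromosomes, Gm13340 and Gm13341 on chromosome 2 had the most counts. The list leaves out 1 chromosome, and any copies there are not reported here, although the window shares include them. Gm13340, with 27.5% of the mt-Co1 windows, had 58 to 353 counts per mouse. Gm13341, with 35.3% of the mt-Co2 windows, had 20 to 172. How reads that match both places were treated is not given in the sources used here. Levels of the 14 members near 0 are therefore uncertain and are not compared in what follows, although the class sums include them. How far the levels of mt-Co1 and mt-Nd4 rest on the parts that are not shared was not tested.

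**Figure D1:**
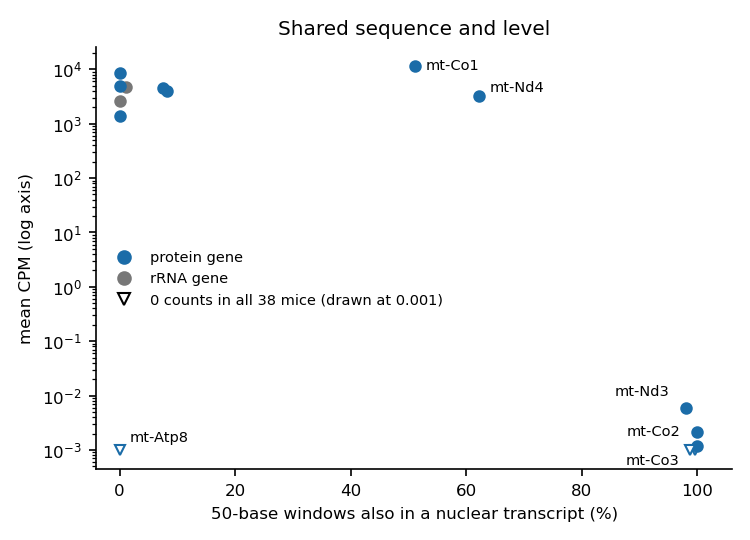
Mean CPM over 38 mice (log axis) against the percent of 50-base windows of each protein (blue) or rRNA (grey) gene that also occur in a nuclear transcript; open triangles are genes with 0 counts in all 38 mice. The 5 protein genes with shares of 98.0% or more sit at or near 0, mt-Co1 (51.1%) and mt-Nd4 (62.2%) lie with the unshared genes, and mt-Atp8 is at 0 with a share of 0%.

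Together the members took 3.71% to 5.45% of all counts of a mouse (mean 4.57% ± 0.41, SD, n = 38). The protein genes summed to 38204 ± 3642 CPM, the rRNA genes to 7344 ± 621 CPM and the tRNA genes to 129 ± 16.9 CPM (SD, n = 38). The tRNA genes therefore contributed 3.38 ± 0.43 counts per 1000 protein gene counts, from 2.39 to 4.37 in individual mice. The 14 members near 0 add almost nothing to these sums, so all shares and ratios of the classes rest on the other members. The libraries were made with a kit for polyadenylated RNA, and mature tRNAs are short and not polyadenylated, so these counts do not measure the pool of mature tRNA.

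Among the 7 protein genes counted, levels were compared per kilobase of gene. mt-Cytb, the mitochondrial subunit of complex III, had the highest mean at 7574 ± 767 CPM per kb. mt-Co1, the catalytic subunit of cytochrome c oxidase, followed at 7411 ± 767 CPM per kb. Their ranges overlapped widely and mt-Cytb was above mt-Co1 in 30 of 38 mice. The complex I subunits came next. mt-Nd1 was at 5275 ± 471 CPM per kb and mt-Nd2 at 3852 ± 424 CPM per kb, each above the next gene in all 38 mice. mt-Nd6 (2676 ± 301 CPM per kb), mt-Nd5 (2450 ± 271) and mt-Nd4 (2312 ± 201) closed the order, mt-Nd6 above mt-Nd5 in 32 and mt-Nd5 above mt-Nd4 in 33 of 38 mice. This order divides by the whole gene, although parts of mt-Co1 and mt-Nd4 are shared with nuclear transcripts. Per 1000 unshared 50-base windows, mean CPM was 15663 for mt-Co1, 7913 for mt-Cytb, 6346 for mt-Nd4 and 5560 for mt-Nd1. On that measure mt-Nd2 was at 4404, mt-Nd6 at 2955 and mt-Nd5 at 2725. The places of mt-Co1 and mt-Nd4 therefore depend on how shared parts are treated. mt-Nd6 is the only protein gene on the light strand, and it took 3.64% of the CPM of the protein genes counted. How the selection of polyadenylated RNA bears on the levels of mt-Nd6, the other mRNAs and the rRNAs was not tested.

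The rRNA genes encode the large (mt-Rnr2) and small (mt-Rnr1) ribosomal RNA. Per kilobase, mt-Rnr2 was at 2996 ± 254 CPM per kb and mt-Rnr1 at 2728 ± 245 CPM per kb, and mt-Rnr2 was the higher in 37 of 38 mice. Both lay near the level of the lower complex I mRNAs in these libraries.

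The 11 tRNA genes with a mean of at least 1 CPM spanned a wider range. mt-Tp had the highest mean at 474 ± 154 CPM per kb and the widest range, from 134 to 788 CPM per kb. Relative to the mean it did not spread most. Its coefficient of variation within groups was 20.5%, below those of mt-Ti (31.4%), mt-Tt (25.9%) and mt-Tl2 (24.8%). mt-Tc (cysteine) followed at 394 ± 60.96 CPM per kb, below mt-Tp in 28 of 38 mice. mt-Tl1 (315 ± 60.95) and mt-Ta (alanine, 283 ± 53.2) were next, mt-Tl1 above mt-Ta in 30 of 38 mice. mt-Tm lay at 151 ± 26.5 CPM per kb in a step of its own, below mt-Ta and above mt-Te in all 38 mice. mt-Te (glutamate, 63.97 ± 9.80 CPM per kb) and mt-Tq (glutamine, 61.9 ± 12.6) did not differ beyond their spread, mt-Te being the higher in 21 of 38 mice. The lowest of the 11 were mt-Tt at 30.4, mt-Tn at 25.1, mt-Tl2 at 21.1 and mt-Ti at 20.2 CPM per kb. mt-Tf, mt-Tv and mt-Ts2 had counts in all 38 mice but means under 1 CPM. Measured per kilobase of the whole gene, the highest tRNA gene was thus below the lowest protein gene, mt-Nd4. The study counted reads with HTSeq in its intersection-non-empty mode, a setting that bears on reads running from a short gene into its neighbour. How far this setting and the read length shape the tRNA levels, their order, their ratio to protein genes and their split by strand was not tested.

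**Figure D2:**
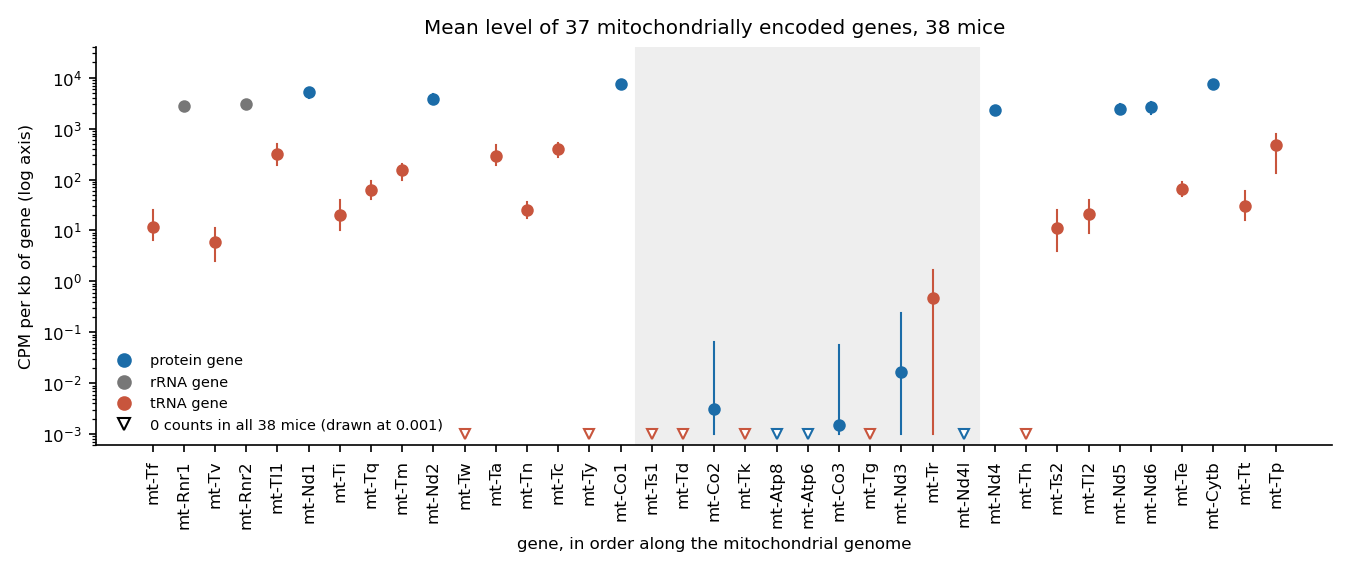
Mean CPM per kb of gene (log axis) of all 37 members in their order along the mitochondrial genome, with lines from the lowest to the highest of 38 mice; blue is protein, grey rRNA and red tRNA, open triangles are genes with 0 counts in all 38 mice, and the shaded stretch holds the 11 members wholly inside the stretch matched by chromosome 1. All 11 are near or at 0, and outside it the protein and rRNA genes lie above every tRNA gene.

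By the annotated strand of the genes, the 2 classes drew on the strands to different extents, although the strand of the reads themselves cannot be told apart here. The 14 tRNA genes on the heavy strand took 31.7% and the 8 on the light strand 68.3% of the tRNA CPM, while 96.4% of the protein CPM came from the 12 heavy-strand genes. Only 6 of these 12 protein genes had a mean of at least 1 CPM, and the levels of the others are uncertain. Of the tRNA genes, 5 on the heavy and 2 on the light strand were at 0 in all 38 mice. Of the 6 tRNA genes with the highest mean CPM, mt-Tp, mt-Tc, mt-Ta and mt-Te are on the light strand and mt-Tl1 and mt-Tm on the heavy strand. The classes also differed in spread. The coefficient of variation within groups was 6.95% to 10.3% for the 7 protein genes (median 8.22%) and 12.9% to 31.4% for the 11 tRNA genes (median 19.1%). Counting error alone gives at most 0.542% for a protein gene but 3.58% to 17.3% for a tRNA gene, so the tRNA values are less precise at this depth.

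By group, the summed protein level had its lowest mean at 6 months in APPPS1ΔE9 mice on placebo. In WT mice of that age the means were 41992 ± 1893 CPM on placebo and 42169.6 ± 2236 CPM on anle138b, and in APPPS1ΔE9 mice they were 35378 ± 3207 CPM on placebo and 41603 ± 4762 CPM on anle138b (SD, n = 4 each). In the post-plaque group the 4 means lay between 36264 and 36996 CPM. The summed tRNA level ranged from 112 ± 10.4 CPM in pre-plaque placebo-treated APPPS1ΔE9 mice to 140.1 ± 10.5 CPM in post-plaque anle138b-treated APPPS1ΔE9 mice (n = 4 and n = 7).

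Relative to protein genes, tRNA genes had a higher mean share in the older mice, where the protein genes were lower and mt-Tp was higher in mean. tRNA counts per 1000 protein counts were 3.10 ± 0.33 in the 16 mice aged 6 months and 3.59 ± 0.37 in the 22 mice aged 10 months (SD), with overlapping ranges of 2.39 to 3.76 and 2.999 to 4.37. The protein genes summed to 40286 ± 4113 CPM at 6 months and 36690 ± 2364 CPM at 10 months. mt-Tp was at 24.9 ± 9.78 and 36.7 ± 7.72 CPM, while the other tRNA genes together were at 99.8 ± 15.6 and 94.9 ± 11.3 CPM. The lowest group mean was 2.88 in pre-plaque placebo-treated WT mice and the highest 3.83 in post-plaque anle138b-treated APPPS1ΔE9 mice. Age, cohort and sequencing differ together between the pre-plaque and post-plaque mice and cannot be told apart, so no test was made between them.

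**Figure D3:**
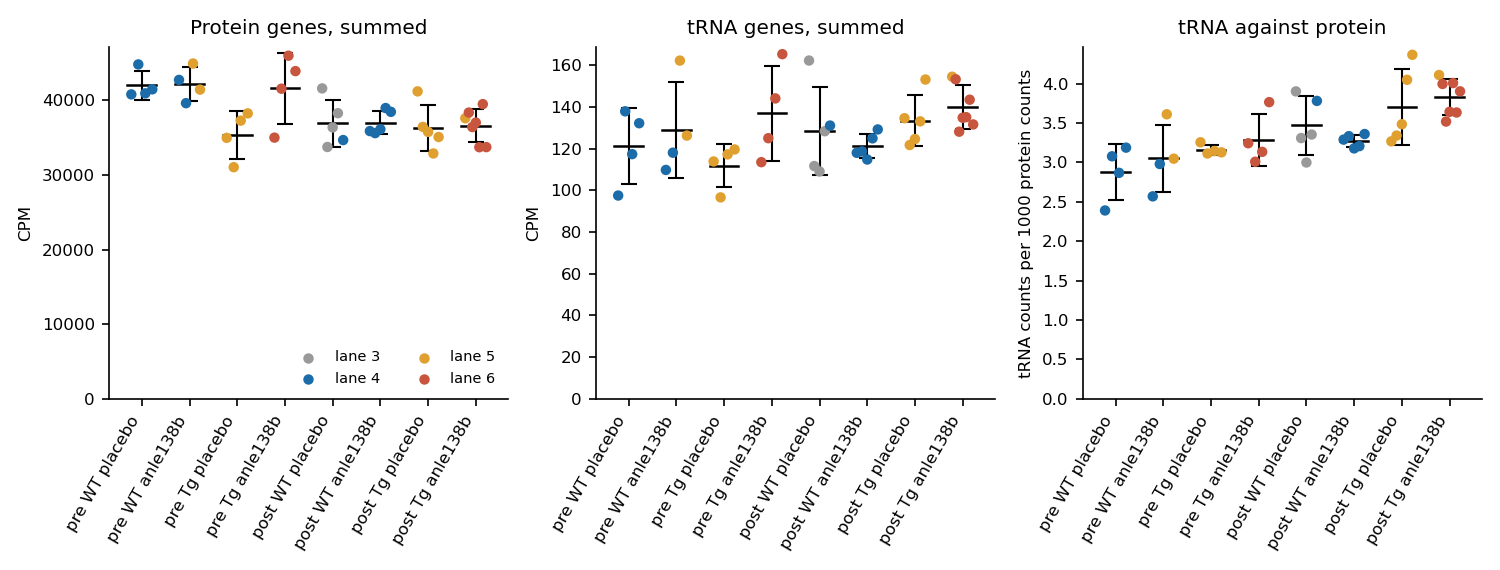
Summed CPM of the protein genes (left), summed CPM of the tRNA genes (middle) and tRNA counts per 1000 protein counts (right) for each mouse in the 8 groups, coloured by sequencing lane; bars are mean ± SD (n = 4 to 7). The pre-plaque placebo-treated APPPS1ΔE9 mice have the lowest mean for protein genes at 6 months. The lowest anle138b-treated APPPS1ΔE9 mouse of that age (34994 CPM) lies within their range (31032 to 38240 CPM). The colours show how closely lane follows group.

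The differences between groups were tested gene by gene with edgeR's quasi-likelihood test over all genes, with Benjamini-Hochberg adjusted p under 0.1 as the threshold. A call is a gene past it. In each comparison 22 or 23 members had enough counts to be tested, namely 7 protein genes, 2 rRNA genes and 13 or 14 tRNA genes. Fold changes are on the log2 scale and each standard error (SE) is that of the log2 fold change. The samples are separate mice.

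The comparison of anle138b with placebo in WT mice asks whether these RNAs differ with the compound in mice without the transgenes. In the pre-plaque group no member was called of 22 tested, against 0% of all 16766 genes, and 1 member (mt-Tq) had an unadjusted p under 0.05. mt-Tq was at 4.36, 5.49, 3.73 and 3.67 CPM in the placebo-treated and at 5.70, 5.35, 5.70 and 4.80 CPM in the anle138b-treated mice. These ranges overlapped and the log2 difference was 0.33 (SE 0.15, adjusted p 0.9998). The protein genes had a median log2 fold change of 0.01 and the tRNA genes of 0.10, beside 0.00 over all genes. In the post-plaque group no member was called of 22, against 0% of 16986 genes, and none had an unadjusted p under 0.05. The class medians were 0.02 for protein and -0.08 for tRNA genes. With lane as a covariate the pre-plaque tRNA median was -0.05 and the post-plaque protein median 0.13, again with no call. DESeq2 called no member in either comparison.

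The comparison of placebo-treated APPPS1ΔE9 with placebo-treated WT mice in the pre-plaque group asks whether the genotypes differ at the earlier age. All 7 protein genes had lower means in APPPS1ΔE9 mice, with log2 fold changes from -0.26 to -0.20 (median -0.22). None of the 23 members tested was called (adjusted p 0.36 to 0.42 for the protein genes), against 0.0715% of all 16774 genes. The unadjusted p was under 0.05 for all 7 protein genes, 1 of 2 rRNA genes and 1 of 14 tRNA genes, and for 11.1% of all genes tested. The members were read in the same libraries and many share a precursor, so they do not count as independent results. mt-Cytb was at 9561, 10375, 9289.5 and 9822 CPM in WT mice and at 7962, 7143, 8552 and 8788 CPM in APPPS1ΔE9 mice. Every WT mouse was above every APPPS1ΔE9 mouse, and the log2 difference was -0.26 (SE 0.086, adjusted p 0.36).

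mt-Co1, the catalytic subunit of cytochrome c oxidase, showed the same order. It was at 12700.0, 13909, 12407 and 12819.5 CPM in WT and at 10930.2, 9739, 11184 and 11556 CPM in APPPS1ΔE9 mice, with a log2 difference of -0.25 (SE 0.082, adjusted p 0.36) and no overlap. Ranges did not overlap for mt-Nd1, mt-Nd2 and mt-Nd4 either. That makes 5 members of 23, all lower, beside 6.38% of all genes tested in either direction and 651 of 16774 genes lower. mt-Nd5 (log2 -0.20) and mt-Nd6 (log2 -0.21), both complex I subunits, overlapped between the groups. The 2 rRNA genes were also lower in mean, mt-Rnr1 by a log2 difference of -0.19 and mt-Rnr2 of -0.20, and their ranges overlapped. DESeq2 called mt-Co1 (adjusted p 0.045) and mt-Cytb (adjusted p 0.0792), beside 0.468% of 19020 genes.

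The tRNA genes were mixed in this comparison. Of 14 tested, 4 had higher and 10 lower means in APPPS1ΔE9 mice (median -0.10). The largest difference was that of mt-Tt (threonine), at log2 -0.59 (SE 0.26, adjusted p 0.437), with overlapping ranges. The log2 sum of the protein genes differed by -0.24, more than its pooled SD of 0.11 and with no overlap between groups, and the log2 sum of the tRNA genes by -0.10, within its pooled SD of 0.19. Whether the 2 classes differ from each other in this contrast was not tested.

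Other measures moved with this contrast. The choroid plexus markers were above 1000 CPM in 3 of 4 WT mice (182 to 7614 CPM) and in 1 of 4 APPPS1ΔE9 mice (62.6 to 6648 CPM). With their summed level as a covariate, the 7 protein genes kept a lower fitted level, with a median log2 fold change of -0.21 and adjusted p of at least 0.682. All 4 WT libraries were in lane 4 and all 4 APPPS1ΔE9 libraries in lane 5, so lane cannot be told apart from genotype in this pair. In a fit of the 4 pre-plaque groups with lane as a term, in which 2 anle138b-treated WT mice share lane 5, the protein median was -0.29 with adjusted p of at least 0.401 and the tRNA median -0.41. Y-linked genes were at most at 1.89 CPM in 3 of the 4 WT mice and in none of the APPPS1ΔE9 mice, and with it as a covariate the median was -0.23 with adjusted p of 0.996 for all 7.

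Glial markers moved with it too, with no gene called. All 4 astrocyte markers (Aqp4, Gja1, Slc1a3 and Aldh1l1) had lower means in APPPS1ΔE9 mice (median log2 fold change -0.19, 2 with an unadjusted p under 0.05). Their summed level was 1225 to 1338 CPM in WT and 1086 to 1193 CPM in APPPS1ΔE9 mice, without overlap. All 4 oligodendrocyte markers were lower in mean (median -0.16), with overlapping sums of 5203 to 5869.6 CPM in WT and 4560.1 to 5563 CPM in APPPS1ΔE9 mice. Of 4 microglia markers 3 were higher in mean (median 0.18, 2 with an unadjusted p under 0.05), with sums of 217.6 to 244.9 CPM in WT and 242.8 to 300.5 CPM in APPPS1ΔE9 mice. The part of these markers in the protein gene difference was not tested.

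The comparison of anle138b-treated with placebo-treated APPPS1ΔE9 mice in the pre-plaque group shares the placebo-treated APPPS1ΔE9 mice with the comparison above, so the 2 are not independent. All 7 protein genes had higher means with anle138b, with log2 fold changes from 0.20 to 0.35 (median 0.22), and so had 12 of 14 tRNA genes (median 0.17) and both rRNA genes. None of the 23 members was called (adjusted p at least 0.32), against 0.0529% of all 17009 genes, and 5 had an unadjusted p under 0.05, as did 13.1% of all genes. mt-Nd6, the light-strand complex I subunit, was at 1188, 1015, 1239 and 1313 CPM with placebo and at 1195, 1557, 1743 and 1594 CPM with anle138b. The lowest anle138b-treated mouse was within the placebo range and the other 3 above it, with a log2 difference of 0.35 (SE 0.12, adjusted p 0.323), and DESeq2 called it (adjusted p 0.0986), beside 1.32% of 15550 genes.

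mt-Tq was the only member of 23 whose ranges did not overlap here, beside 6.15% of all genes. It was at 3.34, 3.27, 3.12 and 4.09 CPM with placebo and at 4.49, 4.20, 4.53 and 5.01 CPM with anle138b, with a log2 difference of 0.39 (SE 0.13, adjusted p 0.32). The log2 sums differed by 0.22 for the protein genes (pooled SD 0.16) and by 0.27 for the tRNA genes (pooled SD 0.21), both with overlapping groups. The 4 placebo libraries were in lane 5 and the 4 anle138b libraries in lane 6. The choroid plexus markers were above 1000 CPM in 1 of 4 placebo-treated and 3 of 4 anle138b-treated mice, and with their level as a covariate the protein median was 0.25 with adjusted p of at least 0.626. All 4 astrocyte markers had higher means with anle138b (median 0.12, 1 with an unadjusted p under 0.05), and their summed level was 1200.2 to 1305 CPM against 1086 to 1193 CPM with placebo, without overlap. Of 4 microglia markers 1 was higher in mean with anle138b (median -0.13, 2 with an unadjusted p under 0.05), and the part of both lists was not tested.

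The genotype comparison under anle138b in the pre-plaque group gave protein and rRNA medians of -0.01 and 0.01 and a tRNA median of 0.00 with 7 higher and 7 lower. No member was called of 23, against 0.047% of 17033 genes, and 1 had an unadjusted p under 0.05. That member was mt-Tp, at 16.2, 16.7, 26.9 and 20.6 CPM in WT and at 27.6, 33.01, 38.6 and 44.1 CPM in APPPS1ΔE9 mice. Every APPPS1ΔE9 mouse was above every WT mouse (ranges did not overlap for 3.22% of all genes), and the log2 difference was 0.84 (SE 0.21, adjusted p 0.738). DESeq2 called it (adjusted p 0.0324), beside 0.156% of 26920 genes.

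In the post-plaque group under anle138b, 2 of the 23 members tested were called between genotypes. Both were tRNA genes with a higher level in APPPS1ΔE9 mice, against 0.723% of all 17151 genes called and 0.694% called higher. mt-Tp, the tRNA for proline, was at 28.1, 28.3, 26.4, 29.9 and 30.02 CPM in the 5 WT mice. In the 7 APPPS1ΔE9 mice its lowest value was 32.5, its median 40.6 and its highest 47.3 CPM. Every APPPS1ΔE9 mouse was above every WT mouse, 1.44-fold in the fit (log2 0.53, SE 0.093, adjusted p 0.0219 by edgeR's quasi-likelihood test).

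mt-Tm, the tRNA for methionine, was at 8.02, 6.67, 8.59, 9.36 and 9.91 CPM in the WT mice. In the APPPS1ΔE9 mice it ranged from 10.5 to 13.1 CPM with a median of 11.5 CPM. The groups did not overlap and the difference was 1.40-fold (log2 0.48, SE 0.096, adjusted p 0.0519 by edgeR). These 2 were the members without overlap, of 23 tested, beside 0.857% of all genes. mt-Tl1 was at 18.4, 19.8, 21.4, 23.1 and 22.7 CPM in the WT mice and at 22.3 to 31.8 CPM (median 25.4) in the APPPS1ΔE9 mice. Its ranges overlapped and it was not called by edgeR (log2 0.33, SE 0.089, adjusted p 0.242), while DESeq2 called it (adjusted p 0.0645) along with mt-Tp and mt-Tm, beside 0.892% of 21086 genes.

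No other member was called. Of 14 tRNA genes tested 7 had positive and 7 negative values (median 0.06 on the log2 scale), and the 7 protein genes had a median of -0.01 with values from -0.10 to 0.02, beside 0.00 over all genes. mt-Tc and mt-Ta, which are on the light strand like mt-Tp and of similar level, had log2 differences of -0.07 (SE 0.078) and -0.05 (SE 0.10). mt-Tt, which abuts mt-Tp on the other strand, was at -0.04 (SE 0.12). The log2 sum of the tRNA genes was higher by 0.21 (pooled SD 0.091) in APPPS1ΔE9 mice without overlap, and that of the protein genes differed by -0.01 (pooled SD 0.073). Without mt-Tp and mt-Tm the summed tRNA level was 84.04 ± 3.65 CPM in WT and 87.3 ± 7.39 CPM in APPPS1ΔE9 mice, which overlapped.

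Limits of these 2 calls are as follows. All 5 WT libraries were in lane 4, and the APPPS1ΔE9 libraries were in lanes 5 (1 mouse) and 6 (6 mice), so lane and genotype cannot be told apart. mt-Tm lost its call in 6 of 12 fits that left out 1 mouse (post-plaque anle138b-treated APPPS1ΔE9 mice 1, 3 and 7, and WT mice 1, 2 and 3, adjusted p 0.103 to 0.179), while mt-Tp kept its call in all 12. Both were called with Y-linked expression as a covariate (adjusted p 0.0634 for mt-Tp and 0.00455 for mt-Tm), which 3 of 5 WT and 1 of 7 APPPS1ΔE9 mice lacked. With the choroid plexus markers as a covariate, which were at 4322 CPM in 1 APPPS1ΔE9 mouse and at most 275 CPM in the other 11, mt-Tp was called (adjusted p 0.0541) and mt-Tm was not (adjusted p 0.109).

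Under placebo the post-plaque genotype comparison called no member of 23, against 0.324% of 16971 genes, and DESeq2 called none. mt-Tp alone had an unadjusted p under 0.05. It was at 30.5, 34.2, 25.1, 35.7 and 35.9 CPM in WT and at 39.6, 36.2, 40.2, 47.5 and 52.8 CPM in APPPS1ΔE9 mice, again without overlap (beside 1.33% of all genes), with a log2 difference of 0.43 (SE 0.12, adjusted p 0.517). mt-Tm and mt-Tl1 differed by log2 0.03 (SE 0.14) and -0.14 (SE 0.13) and overlapped. The protein median was 0.00 and the tRNA median -0.02, with 6 of 14 tRNA genes higher. With Y-linked expression as a covariate, which 3 of 5 WT and 0 of 5 APPPS1ΔE9 mice lacked, the medians were 0.08 for protein and 0.12 for tRNA genes and no member was called.

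Across the 4 genotype comparisons, which share no mouse, mt-Tp was higher in APPPS1ΔE9 mice without overlap in 3 and not in the fourth. In the pre-plaque placebo comparison it was at 9.01, 21.1, 20.6 and 36.5 CPM in WT and at 22.9, 25.5, 29.1 and 10.8 CPM in APPPS1ΔE9 mice, a log2 difference of 0.02 (SE 0.49, adjusted p 0.991). The SD was 11.3 CPM in these WT mice and 7.94 CPM in these APPPS1ΔE9 mice. Group means of mt-Tp ran from 20.1 ± 4.96 CPM in pre-plaque anle138b-treated WT mice to 43.3 ± 6.73 CPM in post-plaque placebo-treated APPPS1ΔE9 mice, and only the post-plaque anle138b comparison passed the threshold in edgeR. In none of the 4 comparisons did the genotypes share a lane, so lane and genotype cannot be told apart. Pre-plaque anle138b-treated WT mice were split evenly over lanes 4 and 5. Their mt-Tp was at 16.2 and 16.7 CPM in lane 4 and at 20.6 and 26.9 CPM in lane 5. Their mt-Tm was at 8.22 and 9.70 CPM in lane 4 and at 11.5 and 13.96 CPM in lane 5.

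**Figure D4:**
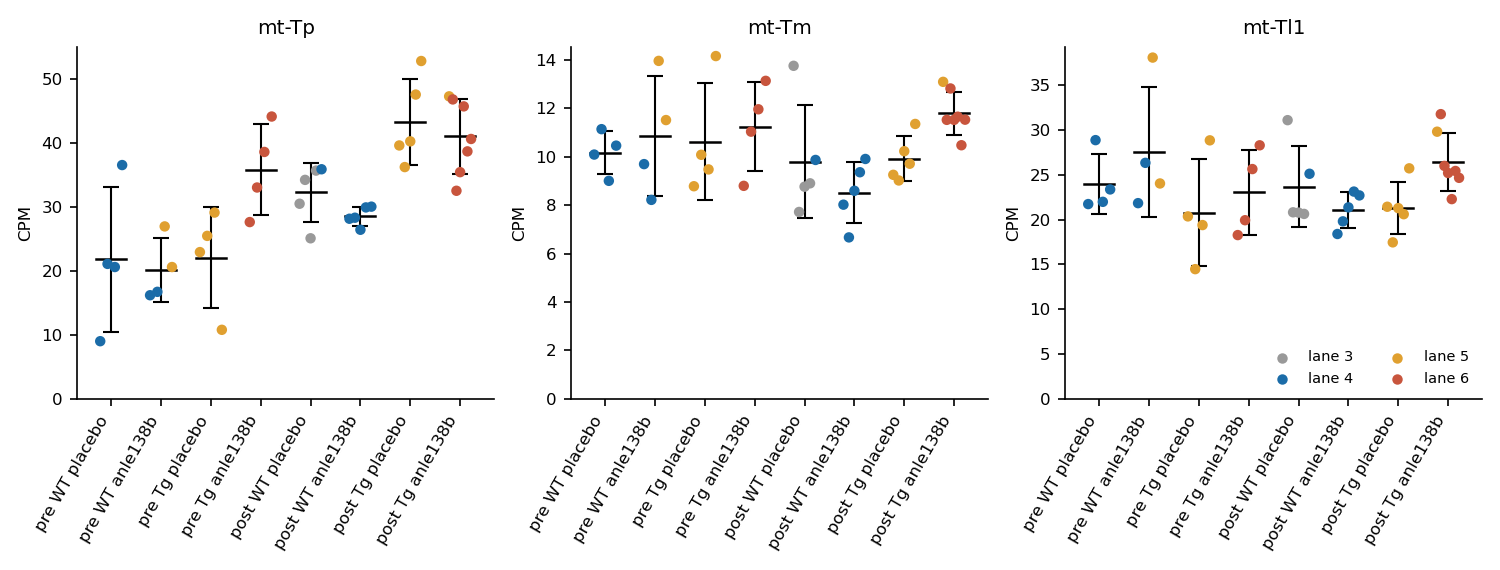
CPM of mt-Tp, mt-Tm and mt-Tl1 in each of 38 mice by group, coloured by sequencing lane, with mean ± SD (n = 4 to 7). For mt-Tp both post-plaque APPPS1ΔE9 groups lie above the WT group on the same chow without overlap. The ranges are 32.5 to 47.3 against 26.4 to 30.02 CPM on anle138b and 36.2 to 52.8 against 25.1 to 35.9 CPM on placebo. Over both chows the genotypes overlap. For mt-Tm only the post-plaque anle138b-treated mice separate by genotype.

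anle138b and placebo were also compared within post-plaque APPPS1ΔE9 mice. No member of 23 was called, against 0% of 17110 genes, 2 had an unadjusted p under 0.05, and DESeq2 called none. These were mt-Tm (log2 0.26, SE 0.079, unadjusted p 0.00608 in edgeR) and mt-Tl1 (log2 0.32, SE 0.10, unadjusted p 0.00703 in edgeR), both higher with anle138b with overlapping ranges and an adjusted p of 0.999. For mt-Tp the difference was within its error (log2 -0.07, SE 0.11). The protein genes had a median of 0.02, the tRNA genes of 0.08 and the rRNA genes of 0.02. The 5 placebo libraries were all in lane 5, and of the anle138b libraries 1 was in lane 5 and 6 in lane 6. With lane as a covariate the medians were 0.07, 0.13 and 0.16 in the same order, again with no call.

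Whether the genotype difference depended on chow was tested by the interaction term in a fit of the 4 groups of each age. In the pre-plaque group no member was called of 23, against 0% of 17404 genes, and mt-Nd6 alone had an unadjusted p under 0.05 (log2 0.34, SE 0.13, adjusted p 0.618). The 7 protein genes all had a positive interaction (median 0.23), and 9 of 14 tRNA genes did (median 0.08). In the post-plaque group no member was called of 23, against 0% of 17668 genes. mt-Tl1 (log2 0.48, SE 0.16) and mt-Tm (log2 0.45, SE 0.17) had an unadjusted p under 0.05, both with an adjusted p of 0.989, and mt-Tp did not (log2 0.10, SE 0.16). DESeq2 called no member in either interaction.

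**Figure D5:**
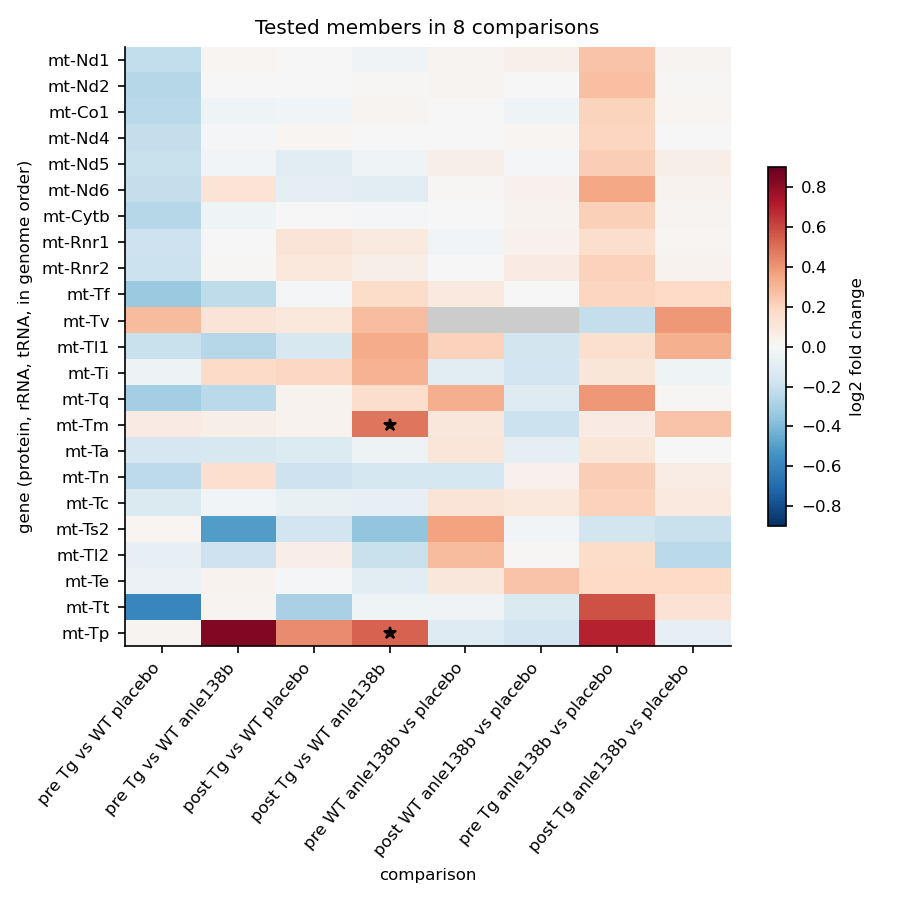
Log2 fold changes (colour) of the 23 members tested in any comparison (rows: protein, rRNA, then tRNA genes) in the 8 pairs of groups (columns); grey is not tested and stars mark adjusted p under 0.1 in edgeR. The protein rows lie between -0.26 and 0.35 and are near 0 in all post-plaque columns, while the tRNA rows differ from each other, and the only stars are mt-Tp and mt-Tm in post-plaque APPPS1ΔE9 against WT mice on anle138b.

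The nuclear genes that make and use these RNAs were read from 7 lists. They cover mitochondrial transcription, DNA replication, tRNA excision, RNA stability and decay, tRNA and rRNA modification, aminoacyl-tRNA synthetases and regulators of mitochondrial biogenesis, 88 genes in all. All 88 were tested in each of the 8 pairs of groups and none was called in any, beside 0% to 0.723% of all genes per pair. The summed transcription list was at 126.1 to 132.9 CPM in pre-plaque placebo-treated APPPS1ΔE9 and at 133.9 to 141.96 CPM in WT mice, without overlap. The summed synthetase list was at 652.6 to 698.5 CPM in pre-plaque anle138b-treated APPPS1ΔE9 and at 701.6 to 776.6 CPM in WT mice, also without overlap. These 2 sums stand out of 7 lists read in 8 pairs. Ranges of single genes did not overlap for 6.38% of all genes in the placebo pair and for 3.22% in the anle138b pair. The part of these lists in the member levels was not tested. The median log2 fold change of a list stayed between -0.14 and 0.12. The lowest median was that of the transcription list and the highest that of the 5 tRNA excision genes (Elac2, Trmt10c, Hsd17b10, Prorp and Trnt1), which cut at tRNA ends and finish them. Nuclear genes were also read for RNAs that lack a poly(A) tail. A list of 8 named RNAs of this kind summed to at most 1.57 CPM in any mouse. Genes picked by symbol pattern alone summed to 12.8 to 20.3 CPM (138 snoRNA genes) and to 56.5 to 108.1 CPM (68 replication histone genes). The mitochondrial tRNA genes were at 129 CPM. Whether the counts of the pattern lists came from RNA without a tail was not tested.

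Of the cell type markers, 2 were called in the comparison that called mt-Tp and mt-Tm. These were the microglial receptors Cx3cr1 (log2 0.51, SE 0.093, adjusted p 0.0286 in edgeR) and Csf1r (log2 0.48, SE 0.10, adjusted p 0.0717 in edgeR), both higher in APPPS1ΔE9 mice. The summed level of the 4 microglia markers was 230 to 331 CPM in the 7 APPPS1ΔE9 and 191 to 241 CPM in the 5 WT mice, and its part in the tRNA difference was not tested. Markers of excitatory neurons, astrocytes, oligodendrocytes and endothelium had no call in any of the 8 pairs, although the summed astrocyte level differed without overlap in the pre-plaque comparisons named above. In post-plaque mice on anle138b the summed oligodendrocyte level spread from 2201 to 6750 CPM in WT and from 2716 to 6200 CPM in APPPS1ΔE9 mice. The summed excitatory neuron level spread from 4077 to 6911 and from 4361 to 7183 CPM in the same order. With this spread, the absence of a call does not show equal cell composition.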

How the data were processed

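Hippocampal RNA of 38 mice was sequenced after poly(A) selection (TruSeq). The authors aligned reads to mm10 with STAR 2.3.0 (per the study's methods) and deposited 1 table of raw counts per mouse, made with HTSeq. The study's methods give the HTSeq mode as intersection-non-empty. Read length, strand setting, annotation release and the treatment of reads that map to several places are not given in the sources used here. Gene IDs were matched to GENCODE release M21 (48349 of 48709 found). Groups were taken from sample titles. Each pair of groups was fitted over all genes with edgeR 4.0.16 in R 4.3.3 (filterByExpr with a minimum count of 10 and total of 15, TMM, robust quasi-likelihood test), with adjusted p under 0.1 as the threshold, and DESeq2 1.42.0 as an alternative. CPM values use the library total. The scripts were tested on simulated data. The members, gene lists and tests were chosen with earlier results of these data known. Values by mouse or group were given by rule for called members, both rRNA genes, the protein genes and the 6 tRNA genes of highest mean CPM, and mt-Tq and mt-Tt were named after their values were seen. Other alternatives were another normalization, no filter, a replicate block, Y-linked, lane and choroid plexus covariates, and leaving out each mouse. p-values measure the spread between mice. Sample numbers do not pair mice across groups.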

Additional observations from a re-analysis of the deposited data

Results flagged for a closer look

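Single mice that stood apart from their group were sought in 24 measures over 192 groups, by the gap to the nearest mouse relative to the range of the group. This picked out 12 values, and chance flags about 1 in 20 groups. Among the sums, pre-plaque placebo-treated WT mouse 2 had 44797.3 CPM in the protein genes, against 40784.6 to 41463.6 CPM in the other 3. Post-plaque placebo-treated WT mouse 1 had 8001.27 CPM in the rRNA genes, against 6346.98 to 6785.53 CPM in the other 4, and 2909.58 CPM of mt-Rnr1, against 2281.11 to 2447.07 CPM.

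Among the tRNA genes, mt-Ta was at 13.2735 CPM in pre-plaque placebo-treated APPPS1ΔE9 mouse 2, against 17.6 to 18.5 CPM in the others, and at 27.181 CPM in pre-plaque anle138b-treated WT mouse 3, against 17.7 to 18.1 CPM. mt-Te was at 5.72309 CPM in post-plaque anle138b-treated APPPS1ΔE9 mouse 6, against 4.09 to 4.73 CPM, and at 3.34756 CPM in pre-plaque placebo-treated APPPS1ΔE9 mouse 2, against 4.22 to 4.25 CPM.

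Among the nuclear copies, Gm28438 was at 23.6623 CPM in post-plaque placebo-treated WT mouse 1, against 12.03 to 14.5 CPM. Gm4076 was at 0.533224 CPM in pre-plaque anle138b-treated APPPS1ΔE9 mouse 1, against 0.282 to 0.315 CPM. In pre-plaque anle138b-treated WT mouse 2, Gm4076 was at 9.85109 CPM, against 0.188 to 0.344 CPM, and Gm13340 at 19.8711 CPM, against 6.45 to 8.16 CPM. Gm13341 was at 0.860149 CPM in post-plaque placebo-treated WT mouse 4, against 1.37 to 1.54 CPM.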

How the results depend on the processing

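In the post-plaque genotype comparison under anle138b, the number of members called went from 2 to 1 (mt-Tp) at adjusted p under 0.05 and, in an alternative chosen after seeing the data, with the choroid plexus covariate. Leaving out 1 mouse gave 1 to 2 calls. On the mean of log2 CPM over genes, the tRNA difference in that comparison was 0.0778 in place of 0.21. DESeq2 called 2 members (mt-Co1 and mt-Cytb) in the pre-plaque placebo genotype comparison, 1 (mt-Tp) in the pre-plaque anle138b genotype comparison and 1 (mt-Nd6) between chows in pre-plaque APPPS1ΔE9 mice, where edgeR called 0 members each time. Over all genes DESeq2 called 89 against 12, 42 against 8 and 205 against 9 genes in these 3 comparisons, 188 against 124 in post-plaque mice on anle138b and 113 against 55 on placebo, and it tested between 15550 and 26920 genes there against edgeR's 16774 to 17151. The cause of these differences was not tested. The share of mt-Co1 windows found in a nuclear transcript was 59.7%, 39.4% and 30.8% for windows of 36, 76 and 100 bases, also chosen after seeing the data. No called value changed sign under any alternative run.

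Same-numbered mice correlated between -0.594 and 0.626, and in no comparison did every pair exceed 0.1, so the numbers give no pairing. With a replicate block, 0 members were called in the post-plaque anle138b genotype comparison (20 of all genes against 124) and 1 (mt-Tp) in the pre-plaque one. A replicate block moved all-gene counts to 8 against 12 and 13 against 8 in the pre-plaque genotype comparisons and to 25 against 55 in the post-plaque placebo one. In each comparison, 0 to 2 mice correlated best with their own number. Depth limits the tRNA genes, whose counts ran from 15 upward in the 11 described by level.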
